A study of Mus musculus with 18 samples.

Results

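Ms4a4c, Ms4a6b, Ms4a6c, Ms4a6d and Ms4a7 are the members of the Ms4a gene family that were followed here, 5 of the 23420 genes listed in each library. They were chosen by symbol from the Ms4a4 to Ms4a7 stretch of the gene cluster, with their levels in these libraries already known. Their differences between groups are therefore described with their errors and carry no p-value. Beside each count of members past a threshold in the main edgeR fit stands the share of all tested genes past the same threshold. Counts of members under other settings mostly stand without that share.

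The RNA came from C57BL/6 bone marrow cells cultured with GM-CSF, a growth factor that turns marrow progenitors into dendritic cells and macrophage-like cells, and sorted for high CD11c. There were 18 libraries in 6 groups of 3, and each treatment lasted 8 hours. Wild type (WT) cultures received medium, LPS (the bacterial cell wall component that activates Toll-like receptor 4), IL10 + TGF-β (a pair of immune-restraining cytokines), or LPS + IL10 + TGF-β. Cultures of the genotype Bat3 fl/fl CD11c Cre, called cKO here, received medium or LPS and were not treated with the cytokines. Bat3 is an older name of Bag6, a chaperone, and the Cre recombinase is driven by the promoter of CD11c, so deletion is limited to cells that have switched that promoter on. A group with the Cre or the floxed allele alone was not analysed here. The labels' treatment note speaks of 5 biological replicates while the titles number 3, and no label ties a library to an animal or culture. The p-values given below then measure only the spread between these libraries, which may be technical.

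MS4A proteins thread through the membrane several times and leave both ends inside the cell. The best known are CD20 of B cells, encoded by Ms4a1, and the β chain of the high-affinity IgE receptor of mast cells, encoded by Ms4a2. Several others sit beside immune receptors and change how these signal, such as MS4A4A with the β-glucan receptor Dectin-1 in macrophages. Ms4a7 is widely used as a macrophage marker, while the products of Ms4a4c, Ms4a6b, Ms4a6c and Ms4a6d are less well understood.

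The RefSeq table of the GRCm38.p6 assembly, the build that mm10 names, holds 21 Ms4a genes on chromosome 19 between positions 10962289 and 11640851, a span of 679 kb. Ms4a7 lies at chr19:11321039-11336146 on the minus strand. Ms4a4c lies at chr19:11404717-11427246, Ms4a6c at chr19:11469353-11487182 and Ms4a6b at chr19:11518559-11530403, all on the plus strand. Ms4a6d lies at chr19:11586606-11604804 on the minus strand. All 5 fall within 284 kb.

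Because Ms4a4c and Ms4a7 followed different patterns in the data below, the RefSeq start-site windows of these members are printed. Each window runs from 250 bases before the start to 50 after it, 5′ to 3′ on the gene's strand, from GRCm38.p6. Capitals mark matches to GAAANNGAA (or its reverse complement), a short form of the interferon-stimulated response element, searched on both strands. The windows are Ms4a4c at chr19:11407411-11407710 and the more upstream of the pair listed for Ms4a7 at chr19:11336097-11336396.
Ms4a4c: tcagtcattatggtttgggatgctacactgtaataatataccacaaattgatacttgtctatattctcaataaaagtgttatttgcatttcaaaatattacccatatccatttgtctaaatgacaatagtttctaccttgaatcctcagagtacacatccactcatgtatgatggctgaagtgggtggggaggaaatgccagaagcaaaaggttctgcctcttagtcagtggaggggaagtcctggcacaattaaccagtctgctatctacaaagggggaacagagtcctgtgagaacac
Ms4a7: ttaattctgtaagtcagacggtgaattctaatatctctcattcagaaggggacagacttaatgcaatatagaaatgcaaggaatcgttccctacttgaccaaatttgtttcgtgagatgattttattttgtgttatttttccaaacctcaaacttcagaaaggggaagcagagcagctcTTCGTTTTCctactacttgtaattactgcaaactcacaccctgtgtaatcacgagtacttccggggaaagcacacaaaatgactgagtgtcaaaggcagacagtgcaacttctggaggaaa

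RefSeq's table gave no window for Ms4a6d. The first Ms4a7 window carried a match on the opposite strand 71 bases before the start and its second window carried one 148 bases before, while the Ms4a4c window carried none. Of all windows, 8.56% held at least 1 match. TTCNNNGAA, the STAT site, was in 8.3% of all windows and in none of those of Ms4a4c and Ms4a7. GGGANTTCC, the NF-kB site, was in 1.68% of all windows and likewise in none of theirs. CAGAC, the short SMAD site, was in 49.6% of all windows. The Ms4a4c window held 1 copy, the first Ms4a7 window held 3 and its second held none. These matches describe the letters in the windows only. The Ms4a4c window starts inside the RefSeq span of the gene, so another start of that gene is not covered.

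Total expected counts per library ran from 8056831 to 12068759, and 11876 genes had enough counts to be tested, among them all 5 members. Ms4a4c, Ms4a6b and Ms4a7 passed that count filter only through the treated groups. For these genes a level above medium was therefore largely fixed by the filter. Counts of members above medium do not compare evenly with the shares of all genes. Bag6, the targeted gene, was between 22.8 and 27.6 CPM (counts scaled to the library's size and its TMM factor) in the 12 WT libraries and between 4.56 and 11.3 in the 6 cKO libraries. These counts cover the whole gene and not only the deleted part. The first replicate of both cKO groups had Xist, the RNA of the inactive X chromosome, at 526 and 1014 CPM, against at most 1.12 in the other 16 libraries. The third WT medium library had less than the other WT medium libraries of a 12-gene dendritic cell list (summed TPM, a length-scaled unit, of 2162 against 4862 and 4513). Markers of monocytes and macrophages summed to between 13830 and 37457 TPM in all libraries, while those of B cells reached at most 5.18 and those of T and NK cells at most 3.96. In bulk RNA, fewer cells of a type and less RNA per cell cannot be told apart.

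In resting WT cells Ms4a6d had by far the most counts of the 5 members. Ms4a6d stood at 30.7, 20.5 and 37.8 CPM in the 3 medium libraries. Ms4a6c stood at 1.7, 1.54 and 2.94 CPM. Ms4a7 gave 0.255, 0.0858 and 0.673 CPM, from 12 counts in all. Ms4a4c had 3 counts in the first library and 0 in the others, and Ms4a6b had 3 counts in the third and 0 in the others. A total of 3 counts over a group is the floor used here, so fold differences for Ms4a4c and Ms4a6b are given as ratios of pooled counts with exact 95% intervals that cover counting error only.

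With LPS all 5 genes were higher in WT cells, by amounts that differed widely. Ms4a6d reached 693, 849 and 638 CPM, 727 ± 109 (SD, n = 3), against 29.6 ± 8.68 in medium. Ms4a4c reached 212, 307 and 195 CPM from almost nothing, a pooled ratio of 2793 (interval 955 to 13545). Ms4a6c reached 116, 128 and 97.4 CPM. In all 5 genes every LPS library lay above every medium library, as in 32.2% of all genes tested. Ms4a6b reached 34.9, 24.5 and 23.2 CPM, a pooled ratio of 324 (111 to 1577). Ms4a7, the macrophage marker, reached 3.24, 3.15 and 1.77 CPM, a far smaller level and a ratio of 7.98 (4.3 to 16.2).

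On the log2 scale the LPS difference in WT cells was 5.78 ± 0.21 (SE) for Ms4a6c, 4.61 ± 0.20 for Ms4a6d and 2.95 ± 0.44 for Ms4a7. Without the third WT medium library they were 6.12, 4.82 and 3.89. The median of the 5 was 5.78, against 0.01 over all genes tested. All 5 were higher at an adjusted p under 0.05 in edgeR's quasi-likelihood test with Benjamini-Hochberg adjustment. Over all genes 29.8% passed this threshold in this direction. Ms4a4c, Ms4a6b and Ms4a7 entered the test only through treated groups, so their calls against medium were largely fixed beforehand. Of a list of 30 interferon-stimulated genes, itself chosen with earlier results known, 30 rose, with a median log2 fold change of 6.57. Among them Oasl2, an oligoadenylate synthetase-like antiviral protein, rose by 7.57 ± 0.18 (edgeR, adjusted p = 1.3e-17), Oas3 by 6.19 ± 0.15 (edgeR, adjusted p = 1.9e-17) and Rtp4 by 7.57 ± 0.19 (edgeR, adjusted p = 2.7e-17).

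**Figure D1:**
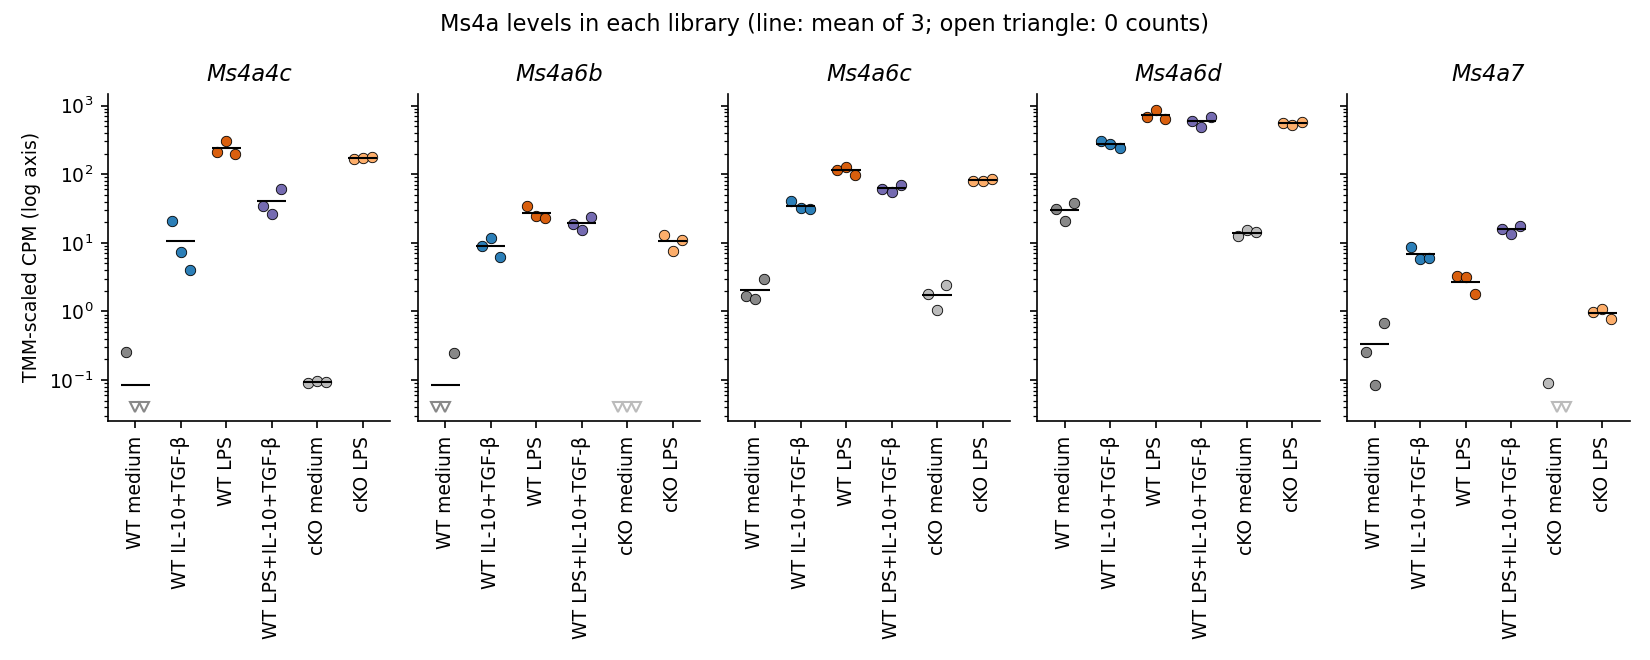
TMM-scaled CPM (log axis) of each gene in each of the 18 libraries, by group, with the mean of 3 as a line and libraries at 0 counts as open triangles. Ms4a4c, Ms4a6b, Ms4a6c and Ms4a6d have their highest mean in WT LPS, and Ms4a7 has its highest in WT LPS + IL10 + TGF-β, at 15.7.

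With IL10 + TGF-β and no LPS, every member was again higher than in medium. Ms4a6d stood at 304, 273 and 238 CPM, a log2 difference of 3.19 ± 0.19 (SE). Ms4a6c stood at 40.1, 32.6 and 30.8 CPM, a difference of 4.05 ± 0.21. Ms4a7 stood at 8.83, 5.84 and 6 CPM, a difference of 4.29 ± 0.39, and for this gene the cytokine libraries lay above all 3 WT LPS libraries. Without the third WT medium library these differences were 3.41, 4.4 and 5.23. For the other 4 members the cytokine mean lay between the means of medium and LPS.

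Ms4a6b stood at 9.02, 11.8 and 6.17 CPM with the cytokines, a pooled ratio to medium of 106 (interval 35.8 to 516). Ms4a4c was the most uneven, at 20.7, 7.44 and 3.95 CPM, with a ratio of 120 (40.7 to 584). Its first library, the highest, was also the highest in the summed interferon list, at 3256 TPM against 2623 and 2356. All 5 members passed the same threshold on the higher side, as did 18.3% of all genes. None overlapped with medium, which held for 24.2% of all genes. The count filter again made this likely beforehand for Ms4a4c, Ms4a6b and Ms4a7. The median log2 difference of the members was 4.29, against 0.00 over all genes. Of the 30 interferon-stimulated genes 29 rose, with a median of 4.30, led by Oasl2 (6.07 ± 0.17, edgeR, adjusted p = 2.4e-16) and Rtp4 (6.89 ± 0.19, edgeR, adjusted p = 2.4e-16).

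Other cell markers moved with the cytokines too. Granulocyte precursor genes summed to between 22047 and 33867 TPM in the cytokine libraries and between 2057 and 4285 in WT medium, and 10 of the 11 tested rose, among them Prtn3, a granule protease (3.49 ± 0.35, edgeR, adjusted p = 1.5e-07). Genes of the dendritic cell list summed to between 932 and 1243 TPM with the cytokines and between 2162 and 4862 in medium. Of 11 tested, 7 fell and 1 rose, and Clec10a, a lectin, was among those that fell (-4.24 ± 0.19, edgeR, adjusted p = 3.5e-12). Zbtb46, a transcription factor that defines classical dendritic cells, fell by 3.28 (SE 0.27, edgeR, adjusted p = 4.3e-09). Mast cell and basophil genes summed to between 27.6 and 54.9 TPM with the cytokines and between 2.18 and 9 in medium. Monocyte and macrophage genes summed to between 16916 and 19324 TPM with the cytokines and between 26449 and 37457 in medium, while 9 of the 20 rose and 4 fell. No gene of these 4 lists was at 0 in all 3 cytokine libraries. The part of these cell types in the Ms4a levels was not tested.

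Of 12 genes that respond to IL-10 or TGF-β, 10 rose and 1 fell in the same comparison. Pmepa1, a TGF-β-induced inhibitor of SMAD signalling, rose by 2.56 ± 0.20 (edgeR, adjusted p = 2.3e-09), and Socs3, the feedback inhibitor induced by IL-10 through STAT3, rose by 1.99 ± 0.15 (edgeR, adjusted p = 2.7e-09). Tgfbi, a secreted matrix protein named for its induction by TGF-β, rose by 2.04 ± 0.16 (edgeR, adjusted p = 2.5e-09). Changes in this list were not particular to the cytokines. With LPS alone in WT cells 10 genes rose and 1 fell, with a median of 1.07 against 1.12 with the cytokines. In cKO cells 10 rose and 2 fell with LPS. Socs3 rose by 2.64 ± 0.16 with LPS alone in WT cells (edgeR, adjusted p = 2.5e-11), more than with the cytokines.

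When LPS and the cytokines were given together the family split. Ms4a4c stood at 34.9, 26.2 and 59.9 CPM, 40.4 ± 17.5 (SD, n = 3), against 238 ± 60.2 with LPS alone, a log2 difference of -2.56 ± 0.42 (SE). Ms4a6c stood at 60.7, 55.9 and 70.4 CPM, a difference from LPS alone of -0.87 ± 0.15. Ms4a7 went the other way, at 16.1, 13.6 and 17.4 CPM, with a difference of 2.53 ± 0.28. In each of these 3 genes the libraries of the compared groups did not overlap, which held for 27% of all genes on the lower side and 25.5% on the higher side.

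The other members differed less between LPS with and without the cytokines. Ms4a6d stood at 595, 480 and 692 CPM with LPS and the cytokines, a difference of -0.30 ± 0.17 with a 95% interval from -0.63 to 0.02. Ms4a6b stood at 18.5, 15.5 and 23.5 CPM, a difference of -0.52 ± 0.25 (-1.02 to -0.03). For both, the libraries overlapped those of LPS alone. Both intervals use a normal approximation and are narrower than the edgeR test allows. Ms4a6b was not under 0.05 in edgeR even before adjustment. Past the threshold were 2 members on the lower side, where 21.1% of all genes lay, and 1 on the higher side, where 19.1% lay. The median of the 5 differences was -0.52, against -0.01 over all genes. Of the interferon list 27 of 30 fell and 1 rose, with a median of -1.01, and Isg15, a ubiquitin-like antiviral protein, fell by 1.75 (SE 0.16, edgeR, adjusted p = 1.1e-07). That median lay between the values of Ms4a4c and Ms4a6c. Granulocyte precursor genes summed to between 11528 and 15554 TPM with LPS and the cytokines and between 2586 and 8111 with LPS, dendritic cell genes to between 800 and 990 against 3651 to 4120, and monocyte and macrophage genes to between 13830 and 15465 against 20006 to 23130. Their part in the Ms4a differences was not tested.

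Compared with the cytokines alone, every member was higher with LPS added, by 1.81-fold for Ms4a6c to 3.84-fold for Ms4a4c. The log2 differences were 1.94 ± 0.46 for Ms4a4c, 1.09 ± 0.27 for Ms4a6b, 0.86 ± 0.15 for Ms4a6c, 1.12 ± 0.17 for Ms4a6d and 1.19 ± 0.25 for Ms4a7. All 5 passed the threshold, as did 23.9% of all genes on this side, and no library of one group overlapped the other, as in 30.4% of all genes. Only 2 members, Ms4a4c and Ms4a6d, passed on log2(TPM + 0.1), and Ms4a4c did not pass when only the groups compared were fitted. The median was 1.12, against 0.00 over all genes, and the interferon list had 30 of 30 genes higher with a median of 1.37. These comparisons share libraries with those above and are not independent of them.

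The effect of LPS was thus smaller in the presence of the cytokines than without them, for each member on the log2 scale. The difference between both LPS effects was -4.92 ± 0.26 (SE) for Ms4a6c, -3.50 ± 0.25 for Ms4a6d and -1.76 ± 0.53 for Ms4a7. For Ms4a4c and Ms4a6b it has no usable size, because both were at the floor in medium. All 5 passed the threshold on this side, as did 12.1% of all genes, and so did 30 of 30 interferon-stimulated genes. This count too holds Ms4a4c, Ms4a6b and Ms4a7, which the filter kept only through treated groups. For Ms4a7, leaving out the first or second WT medium library gave -1.59 and -1.32, leaving out the first cytokine library gave -1.55, and none of these passed. Nor did it pass on log2(TPM + 1) (-0.56) or log2(TPM + 0.1) (-1.69).

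On the linear scale the family split again. With LPS and the cytokines together Ms4a7 stood 15.4 CPM above medium, against 2.38 for LPS and 6.55 for the cytokines, so that the joint difference was 172% of the sum of the separate ones. For Ms4a6d the joint difference was 559 CPM, 59.6% of the sum of 697 and 242. It was 52.5% of the sum for Ms4a6b, 41.8% for Ms4a6c and 16.2% for Ms4a4c. Ms4a7 was thus the only member whose joint difference exceeded the sum, a description of means over 3 libraries a group without a test.

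**Figure D2:**
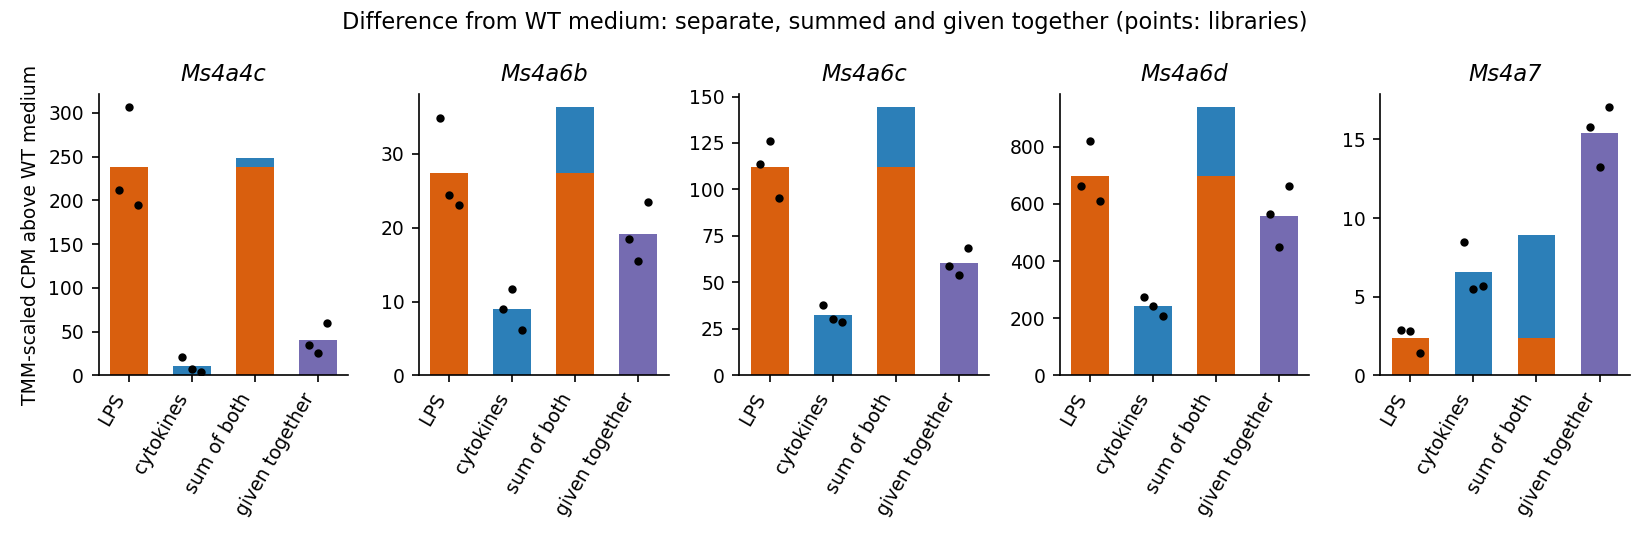
Difference of each gene from the mean of WT medium, in TMM-scaled CPM, for LPS, for the cytokines, for the arithmetic sum of both and for both given together, with libraries as points and a separate axis for each gene. The bar for both given together stays below the sum in 4 genes and is 172% of it in Ms4a7.

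In cKO cells all 5 genes were again higher with LPS. Ms4a6d stood at 560, 524 and 579 CPM in cKO LPS, from 12.5, 15.2 and 14.2 in cKO medium, a log2 difference of 5.31 ± 0.21 (SE). Ms4a6c stood at 80.9, 80 and 85.7 CPM, from 1.81, 1.06 and 2.42, a difference of 5.53 ± 0.21. Ms4a4c stood at 168, 174 and 176 CPM, against 1 count in each medium library, a pooled ratio of 1850 (interval 632 to 8973). 

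Ms4a6b stood at 12.9, 7.64 and 11.1 CPM in cKO LPS, with 0 counts in all 3 cKO medium libraries, which makes it at least 114-fold higher against a floor of 3 counts over the group. Ms4a7 stood at 0.99, 1.09 and 0.769 CPM, from 19 counts against 1 in medium, a ratio of 30.6 (4.86 to 1270). All 5 members passed the threshold on the higher side, as did 29.3% of all genes. Because of the count filter, the calls of Ms4a4c, Ms4a6b and Ms4a7 against medium were again largely fixed beforehand. The median of the 5 was 5.53, against -0.09 over all genes, and the interferon list had 30 of 30 genes higher with a median of 7.73. Every cKO LPS library lay above every cKO medium library in all 5 members, as in 30.8% of all genes. Granulocyte precursor genes summed to between 1637 and 4972 TPM in cKO LPS and between 4448 and 13459 in cKO medium, and 6 of 11 tested fell and 1 rose. Their part in the Ms4a differences was not tested.

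Set against WT cells in LPS, every member was lower in cKO cells, and in each of the 5 the 3 cKO libraries lay below the 3 WT libraries, as they did in 26.4% of all genes tested. Ms4a6b and Ms4a7 were the most reduced, at 38.3% and 34.9% of their WT LPS level, with log2 differences of -1.38 ± 0.27 (SE) and -1.50 ± 0.42. Ms4a6c was at 72.1% (-0.47 ± 0.15), Ms4a4c at 72.5% (-0.46 ± 0.40) and Ms4a6d at 76.3% (-0.39 ± 0.17, 95% interval -0.72 to -0.06). The interval uses a normal approximation, is narrower than the edgeR test allows, and Ms4a6d did not pass the threshold. Past the threshold were 3 of the 5, Ms4a6b, Ms4a6c and Ms4a7, where 19.3% of all genes lay on the lower side. The median was -0.47, against -0.05 over all genes.

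The call of Ms4a6c was lost when the first replicates of both cKO groups, the pair with Xist, were left out (-0.46), and when the first or second cKO LPS library (-0.43 each) or the second WT LPS library (-0.38) was. The interferon list did not show the same direction: 6 of 30 genes rose, 0 fell and 24 did not pass, with a median of 0.28. Mx2, an interferon-induced GTPase, rose by 1.04 ± 0.21 (edgeR, adjusted p = 0.0013), and Oasl2 rose by 0.52 ± 0.13 (edgeR, adjusted p = 0.0031). Across groups, the summed interferon list was between 14074 and 14400 TPM in cKO LPS and between 13498 and 15577 in WT LPS. Dendritic cell genes summed to between 3314 and 3431 TPM in cKO LPS and between 3651 and 4120 in WT LPS, and granulocyte precursor genes to between 1637 and 4972 against 2586 to 8111. Their part in the lower Ms4a levels was not tested.

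**Figure D3:**
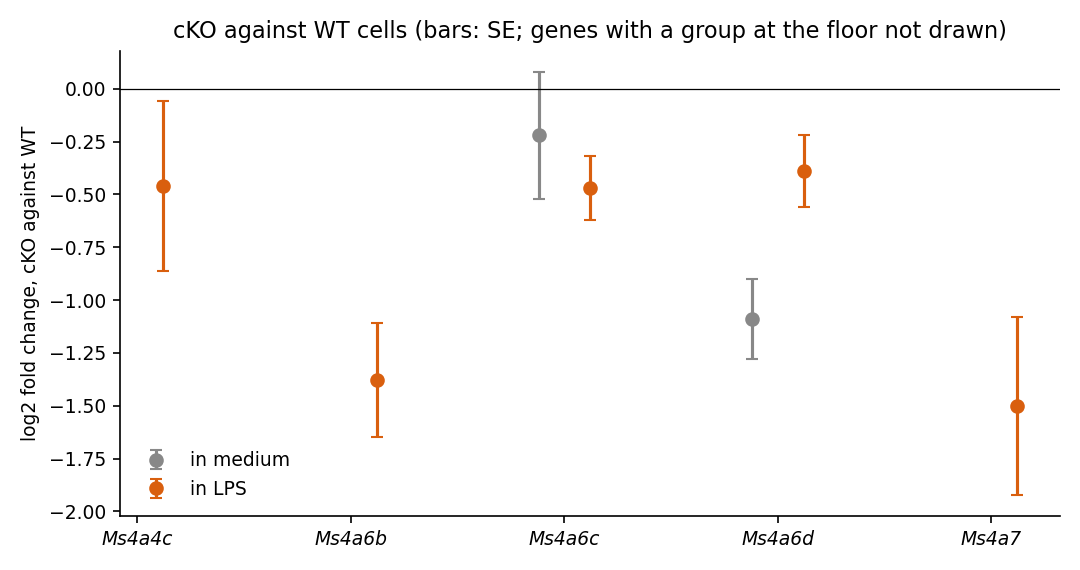
Log2 fold change of cKO against WT cells for each gene, in medium and in LPS, with standard errors; a gene with a group at or under 3 counts in medium is not drawn there. In LPS all 5 estimates lie below 0, from -0.39 for Ms4a6d to -1.50 for Ms4a7.

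In medium the difference could be sized for Ms4a6d and Ms4a6c only. Ms4a6d was lower in cKO medium, 14 ± 1.35 CPM (SD, n = 3) against 29.6 ± 8.68, a log2 difference of -1.09 ± 0.19 (SE) with no overlap between libraries. It was -0.88 without the third WT medium library. Ms4a6c did not differ beyond its spread (-0.22 ± 0.30, 95% interval -0.81 to 0.36), and the sign of its estimate turned when the third WT medium library (0.12) or the second cKO medium library (0.03) was left out. Ms4a7 passed the threshold with 1 count in cKO medium against 12 in WT medium, so its size is not given. The libraries overlapped, and that call was lost when the third WT medium library was left out, when either of the cKO medium libraries with 0 counts was, and on log2(TPM + 1). With Ms4a6d, 2 members passed on the lower side, where 14.4% of all genes lay.

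Granulocyte precursor genes moved with this comparison as well. They summed to 9110, 13459 and 4448 TPM in cKO medium and to 4285, 3340 and 2057 in WT medium, 8 of 11 tested rose, and Prtn3 rose by 2.40 ± 0.36 (edgeR, adjusted p = 8.6e-05). Their part in the lower Ms4a6d was not tested. Of the interferon list 5 genes fell and 1 rose in cKO medium, among them Trim30a, a regulator of Toll-like receptor signalling, which fell by 0.67 (SE 0.10, edgeR, adjusted p = 4.9e-05).

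Whether the LPS effect itself differed between genotypes could be read for Ms4a6c (-0.25 ± 0.34) and Ms4a6d (0.70 ± 0.25, 95% interval 0.20 to 1.19). That interval uses a normal approximation and is narrower than the edgeR test allows. In edgeR 0 of the 5 members passed the adjusted threshold for this difference, where 17.4% of all genes passed in either direction. At an unadjusted p under 0.05 the share of all genes was not computed, so no count of members is given there. DESeq2 called 1 member, Ms4a6d, higher after adjustment, where it called 1244 of all genes higher and 1011 lower. Without the second WT medium library the edgeR estimate of Ms4a6d was 0.90, and without the second WT LPS library it was 0.82, and both passed. Without the third cKO medium library the estimate of Ms4a6c changed sign (0.04). Of the interferon list 8 of 30 genes were higher and 0 lower in this term, with a median of 0.87. 
Read across all 6 groups, Ms4a4c and Ms4a6c were ordered WT LPS, cKO LPS, WT LPS + IL10 + TGF-β, WT IL10 + TGF-β and then both medium groups, with no overlap between neighbours except the medium pair. Ms4a6b was ordered WT LPS, WT LPS + IL10 + TGF-β, cKO LPS, WT IL10 + TGF-β, and overlapped within the upper pair and within the lower pair of these 4 groups. Ms4a6d had the same order as Ms4a6b, and its libraries overlapped between WT LPS and WT LPS + IL10 + TGF-β and between the latter and cKO LPS. Its medium groups stood apart, WT above cKO. Ms4a7 was ordered WT LPS + IL10 + TGF-β, WT IL10 + TGF-β, WT LPS, cKO LPS and medium, with no overlap above the medium groups. The genes were picked with these patterns known, and the orders are descriptions.

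Per transcript length, Ms4a6d made up most of the family. The 16 Ms4a rows of the files summed to 60.9 ± 23.3 TPM (SD, n = 3) in WT medium, 463 ± 57.8 with the cytokines, 849 ± 144 with LPS and the cytokines and 1271 ± 150 with LPS. They summed to 31.4 ± 4.06 TPM in cKO medium and 748 ± 37.5 in cKO LPS. Ms4a6d held between 59.9% (cKO medium) and 80.5% (LPS and cytokines) of that sum as group means. By mean TPM it was gene number 2696 in WT medium and number 197 in WT LPS.

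The make-up of the family changed with the cytokines. Ms4a4c held 17.2% ± 1.52 (SD, n = 3) of the family's TPM in WT LPS and 16.8% ± 0.729 in cKO LPS, but 4.2% ± 1.09 with LPS and the cytokines and 2.19% ± 1.57 with the cytokines alone. Ms4a6c stayed between 8.75% and 12.5% in the 4 groups that received LPS, the cytokines or both. Ms4a7 held 0.262% ± 0.0642 in WT LPS and 2.25% ± 0.14 with LPS and the cytokines. TPM are relative to all RNA of a library, so these shares compare members with each other and not absolute amounts.

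**Figure D4:**
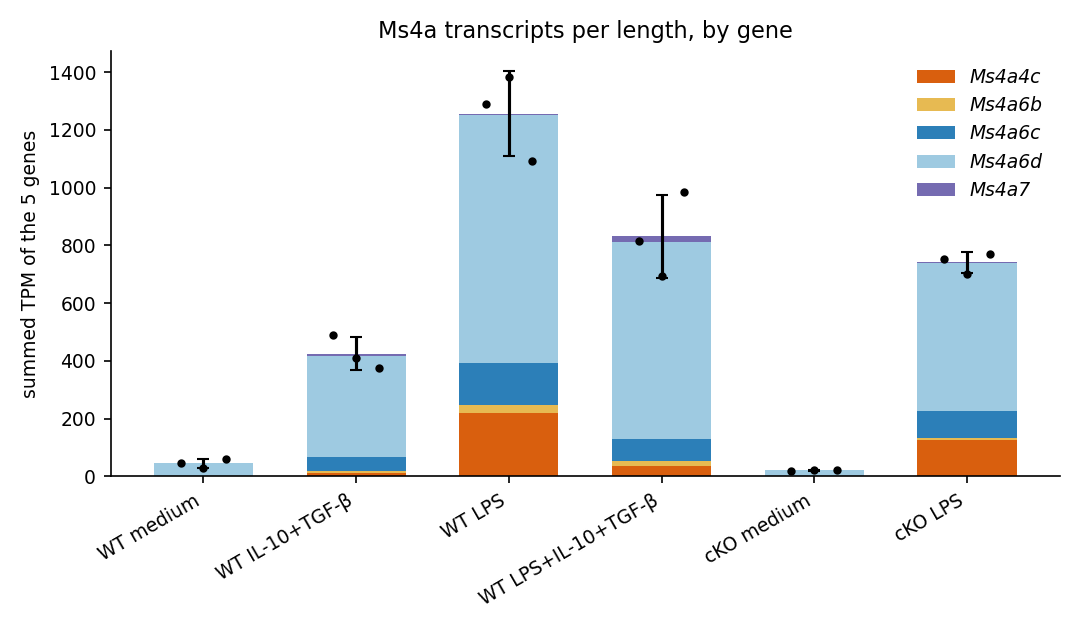
Summed TPM of the 5 genes in each group, stacked by gene as means of 3 libraries, with the SD of the sum as an error bar and each library's sum as a point. Ms4a6d fills most of each bar, and the Ms4a4c layer is thick in both LPS groups without cytokines and thin where the cytokines were given.

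Across the 18 libraries, the 3 genes whose log2 CPM was most like that of each member were taken from 8960 candidates. These averaged 2 or more on that scale, and the members and genes with provisional symbols were left out. Taken over the 6 group means instead, 2 of the 3 genes were the same for Ms4a4c, Ms4a6b and Ms4a6d, and 1 of 3 for Ms4a6c and Ms4a7. For Ms4a4c they included Ifih1, the cytosolic RNA sensor MDA5 (Pearson r = 0.995), and Ifit2, an antiviral RNA-binding protein (0.994). For Ms4a6d they were Slfn8, a Schlafen family protein (0.997), Trim30d (0.993) and Oas1a (0.993). For Ms4a6c they were Pydc4 (0.992), Oas3 (0.992) and Slfn8 (0.991). For Ms4a6b they were Lgals8, a galectin (0.990), Slfn8 (0.982) and Ddx24, an RNA helicase (0.982). The members Ms4a6d (0.984) and Ms4a6c (0.983) were more like Ms4a6b than Slfn8 and Ddx24 were.

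Ms4a7 had other company: B4galt1, a galactosyltransferase of the Golgi (0.977), Msr1, a macrophage scavenger receptor (0.968), and Sgk1, a kinase induced by serum and glucocorticoids (0.960). Sgk1 averaged 161 CPM in WT medium, 283 in WT LPS, 930 with the cytokines and 1296 with LPS and the cytokines, an order shared by Ms4a7. Between members the highest r was 0.987, for Ms4a6c and Ms4a6d, and the lowest was 0.607, for Ms4a4c and Ms4a7. All these coefficients rest on 6 groups of libraries that share treatments, so they describe likeness of pattern and nothing more.

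**Figure D5:**
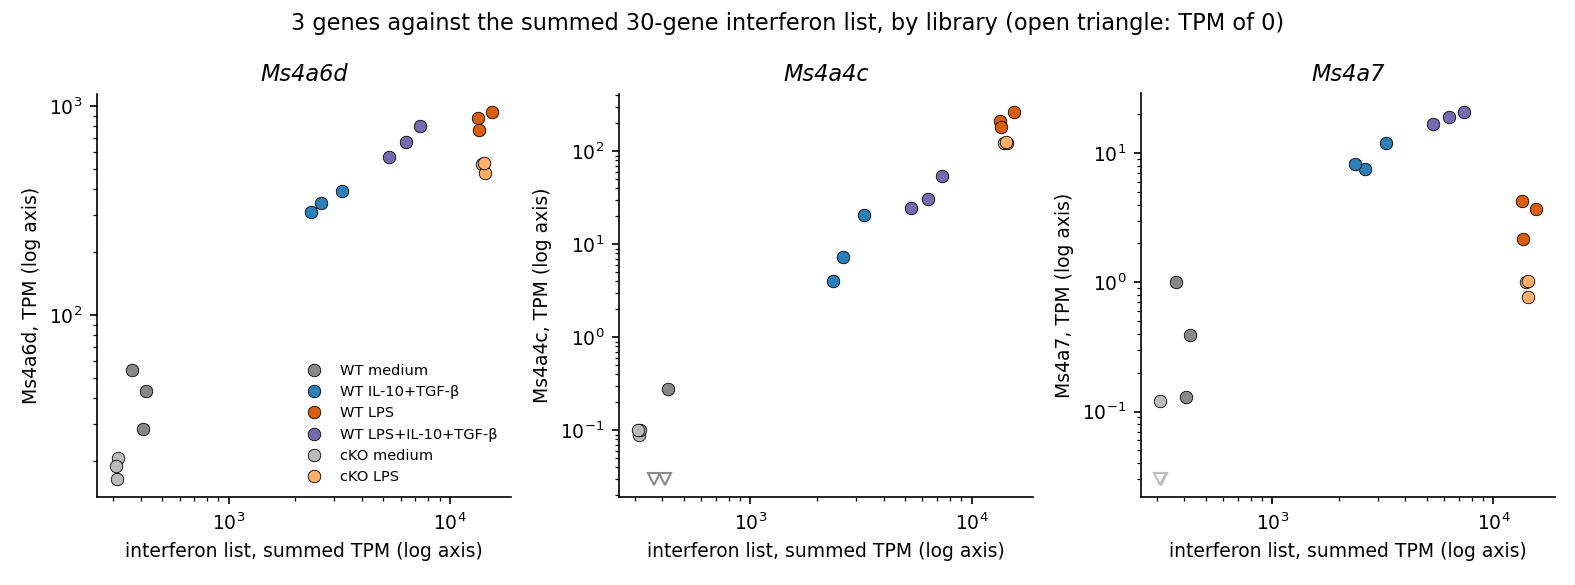
TPM of Ms4a6d, Ms4a4c and Ms4a7 against the summed TPM of the 30 interferon-stimulated genes in each of the 18 libraries, both on log axes, coloured by group, with a TPM of 0 as an open triangle. Ms4a6d and Ms4a4c are low where the list is low and high where it is high, while Ms4a7 is highest in the libraries with LPS and the cytokines, where the list sums to between 5335 and 7377.

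The genes of the Ms4a6 trio and the Ms4a4 pair resemble one another enough to matter for counting. Over their aligned coding bases Ms4a6b and Ms4a6c were 85.4% identical, with a longest identical run of 96 bases between their transcripts. Ms4a6b and Ms4a6d were 81.2% identical with a run of 81 bases. Ms4a4c and its neighbour Ms4a4b were 91.7% identical with a run of 127 bases, whereas Ms4a7 shared no run over 12 bases with any of the other members. RSEM divides reads that fit several genes, so low levels of Ms4a6b and Ms4a4b beside abundant Ms4a6d, Ms4a6c and Ms4a4c are uncertain to an extent that was not tested.

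Of the 11 Ms4a rows outside the 5 members, 4 had enough counts to be tested and 6 had no more than 2 counts in any library. Ms4a4b, whose product is known from T cells, stood at 3.92, 2.57 and 1.21 CPM in WT LPS against 1 count in all of WT medium (edgeR, adjusted p = 3.5e-06), and it rose with the cytokines as well (edgeR, adjusted p = 0.00051). It stayed under 4 CPM throughout, beside Ms4a4c at up to 307.

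Ms4a3, a marker of granulocyte and monocyte progenitors, rose from 1.07 ± 0.166 CPM (SD, n = 3) in WT medium to 9.9 ± 3.26 with the cytokines (log2 3.19 ± 0.51, edgeR, adjusted p = 9.1e-05), did not pass with LPS (-0.66 ± 0.74), and was higher in cKO than in WT medium (2.03 ± 0.54, edgeR, adjusted p = 0.0095). Ms4a2, the IgE receptor chain, rose from 0.226 to 2.44 CPM with the cytokines (3.35 ± 0.76, edgeR, adjusted p = 0.0017), with libraries at 3.69, 0.423 and 3.21. Of 7 tested mast cell and basophil genes 6 also rose and 1 fell. Ms4a8a stood at 4.42, 4.37 and 12.3 CPM in WT medium and at 1.22 ± 0.751 (SD, n = 3) in cKO medium, a log2 difference of -2.52 (SE 0.53, edgeR, adjusted p = 0.002). RefSeq's Ms4a4a, Ms4a12 and Ms4a14 were not analysed here. Nor were Ms4a19 and Ms4a20, which the libraries list as 1700025F22Rik and 1700017D01Rik, and the family sums leave them out.

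Tmem176a and Tmem176b, MS4A-like proteins encoded elsewhere in the genome and abundant in dendritic cells, both fell with the cytokines, with and without LPS. With the cytokines the log2 difference was -3.86 for Tmem176b (SE 0.61, edgeR, adjusted p = 0.00024) and -3.72 for Tmem176a (SE 0.61, edgeR, adjusted p = 0.00027). With LPS and the cytokines against LPS it was -3.25 for Tmem176a (SE 0.65, edgeR, adjusted p = 0.0012) and -2.98 for Tmem176b (SE 0.68, edgeR, adjusted p = 0.0031). With LPS in WT cells Tmem176b fell (-1.28 ± 0.51, edgeR, adjusted p = 0.044) and Tmem176a did not pass (-0.70 ± 0.49). Their levels in WT medium were uneven, with Tmem176b at 48.4, 42.2 and 8.16 CPM, and the third library is also the one with low dendritic cell markers.

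Of 8 receptors and signalling proteins known to work beside MS4A proteins, 7 could be tested. In cKO LPS against WT LPS, 6 of the 7 rose and 1 fell, where 16% and 19.3% of all genes did. In summed TPM the list overlapped, at 6408 to 6801 in cKO LPS and 6289 to 7063 in WT LPS. The one that fell was Clec7a, which encodes Dectin-1, from 523 ± 142 to 281 ± 40.8 CPM (SD, n = 3; log2 -0.90 ± 0.15 SE, edgeR, adjusted p = 0.00021). Trem2, a lipid-sensing receptor of macrophages, rose by 0.72 ± 0.13 (edgeR, adjusted p = 0.00023), and its adaptor Tyrobp rose by 0.40 ± 0.09 (edgeR, adjusted p = 0.0019). Clec7a was also lower in cKO medium (-0.44 ± 0.15, edgeR, adjusted p = 0.036).

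The same partners were mixed under the treatments of WT cells. With LPS, Trem2 fell by 1.10 (SE 0.13, edgeR, adjusted p = 2.4e-07) and Fcer1g, the shared γ chain of Fc receptors, rose by 1.04 ± 0.11 (edgeR, adjusted p = 6.8e-08). With LPS and the cytokines against LPS, 5 of the 7 rose and 1 fell, where 19.1% and 21.1% of all genes did. Trem2 rose by 1.41 ± 0.13 (edgeR, adjusted p = 2.1e-08) and Clec7a fell by 1.00 (SE 0.15, edgeR, adjusted p = 3.3e-05). In that comparison Ms4a7 was higher, and Ms4a4c and Ms4a6c were lower.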

How the data were processed

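Gene expression was profiled by bulk RNA sequencing in 18 libraries, 3 in each of 6 groups taken from the sample titles. The authors deposited expected counts and TPM per gene, per the file headers, made with RSEM on mm10 after bcl2fastq, per the submitters' processing notes. Versions, strandedness and read length were not given in the sources used here. Antisense and overlapping genes therefore cannot be separated. Expected counts were rounded, filtered with filterByExpr (11876 of 23420 genes kept) and scaled by TMM, and all 6 groups were fitted together with the robust quasi-likelihood test of edgeR 4.0.16 (R 4.3.3). There were 7 comparisons and 2 interactions, each adjusted by Benjamini-Hochberg over all genes tested, with 0.05 as the threshold. Standard errors are the log2 fold change divided by the root of F. The 95% intervals of log2 differences use normal quantiles of these errors, and are narrower than the F-test allows with few libraries. The procedure was tested on simulated data. The other settings tried were DESeq2 1.42.0, edgeR with RLE or upper-quartile factors, no count filter, a filter of 5 CPM in 3 libraries, limma 3.58.1 on log2(TPM + 1) and log2(TPM + 0.1), fits of only the groups compared, removal of the ribosomal precursor Rn45s (1.28% to 8.88% of counts), the replicate number as a block, and leaving out each library in turn or the Xist-positive pair together.

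The members, lists, rules and alternatives were chosen with earlier results of these data known. Besides the members, genes named are the other Ms4a rows and Tmem176a and Tmem176b, up to 3 genes with the smallest p of each list discussed, the 3 genes most like each member over the 18 libraries, and the 3 neighbouring genes with the smallest p. Whether equal replicate numbers pair libraries was checked by the correlation of their deviations from group means over 8118 genes. Every correlation passed 0.1 in WT medium against WT cytokines only (0.35, 0.21 and 0.44), which no label explains. Promoter windows and positions are from RefSeq on GRCm38.p6, coding bases and transcripts from GENCODE M21 on the same build. Exact intervals describe counting error alone. One gene of these lists and 1 sequence, with the windows that hold it, are not reported here.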

Additional observations from a re-analysis of the deposited data

Results flagged for a closer look

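On the log2 scale the LPS effect was smaller in WT cells that also received IL10 + TGF-β than in cells that did not, by the interaction term of the edgeR fit. The difference between both log2 effects was -4.92 for Ms4a6c, -3.5 for Ms4a6d and -1.76 for Ms4a7. The value of Ms4a7 rests on 12 counts in medium and did not pass in the settings named above. In CPM its LPS difference was larger with the cytokines, from 6.89 to 15.7, than without them, from 0.338 to 2.72. In all 3 genes the starting level was already raised by the cytokines alone, and Ms4a7 reached its highest level with both. Since the members were chosen with these levels known, the values are descriptions.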

How the results depend on the processing

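Of 1100 recomputed values of single members, 1063 kept their direction and their side of the threshold, 16 newly passed it, 18 lost it and 3 changed sign. Many of these fits left out a library of a group outside the comparison, which barely moves an estimate. Comparisons without a usable size because of the floor were not among them. The count of kept values is therefore no measure of robustness. The sign changes were those of Ms4a6c between cKO and WT medium, at 0.12 and 0.03 when single medium libraries were left out, and of Ms4a6c for the genotype difference in the LPS effect, at 0.04. Over all single left-out libraries these values of Ms4a6c ranged from -0.51 to 0.12 and from -0.6 to 0.04. For cKO against WT medium, 2306 genes passed when only the groups compared were fitted, against 3583 in the fit of all groups, and 1 member passed there and on log2(TPM + 1). Members past the threshold for cKO against WT in LPS numbered 5 without a count filter and 5 when only the groups compared were fitted. In the main edgeR fit they numbered 3, where 4194 of all genes passed in either direction. Somewhat fewer of all genes passed in both of these settings. For LPS added to the cytokines, 2 members passed on log2(TPM + 0.1). The shares of all genes in these settings are not given, so these counts of members are not read as stronger or weaker results. For the genotype difference in the LPS effect, 3309 genes passed on log2(TPM + 1), 3403 on log2(TPM + 0.1) and 1268 without the first cKO replicates, against 2070, and 1 member, Ms4a6d, passed with RLE scaling, with DESeq2, without a filter and 1 on log2(TPM + 1). With single libraries left out, members past the threshold ranged from 1 to 2 for cKO against WT medium, 2 to 4 in LPS, 0 to 1 for the genotype difference and 4 to 5 for the cytokine difference. The causes were not tested.

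Median shifts of all genes depended on the scale. On log2(TPM + 1) the median was -0.31 for cKO against WT in LPS, -0.47 for LPS in cKO cells, -0.19 for LPS in WT cells, -0.25 for the genotype difference, -0.12 for the cytokines and -0.11 for LPS added to them. On that scale Ms4a6d in cKO against WT LPS was -0.74. Higher calls were then 11.8% of all calls for cKO against WT in LPS, against 45.3%, and 21.6% against 45.7% for LPS in cKO cells, 32.9% against 50.8% for LPS in WT cells, 34.1% against 52% for the cytokines, 35.8% against 50.9% for LPS added to them, 39.4% against 52.4% for cKO medium, 12.7% against 42% for the genotype difference and 56.1% against 42.4% for the cytokine difference. With upper-quartile scaling the median was -0.25 for LPS in cKO cells, -0.11 for LPS in WT cells, for cKO against WT in LPS and for the genotype difference, and 0.11 for the cytokine difference. Higher calls were then 36.9% for LPS in cKO cells and 55.7% for the cytokine difference. For the genotype difference they were 55.2% with RLE scaling and with DESeq2. No sized difference of a member changed sign under these scalings. On the deposited TPM, cKO LPS and WT cytokines changed places in the order of Ms4a6b.

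With the replicate number as a block, no count of members changed, and 4276 genes passed for the cytokines against medium, where 4175 did without the block and where the data hint at a pairing. Elsewhere this check did not show a pairing by number, with correlations of 0.17, 0.05 and 0.18 for LPS in cKO cells. However, the first replicates of both cKO groups alone had high Xist, so their number may mark a shared source. The block moved counts from 3583 to 3666 at cKO medium and from 2070 to 2141 at the genotype difference. For LPS in cKO cells it moved them from 7614 to 7623. Depth limits Ms4a4c, Ms4a6b and Ms4a7 in medium, where 3 counts over a group decide the size of a ratio.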

Other observations

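Of 21 tested neighbours, 10 on each side and AW112010 inside it, 6 rose and 6 fell with LPS in WT cells, with a median log2 fold change of -0.21 against 0.01 over all genes. Over all genes 29.8% rose and 28.9% fell, shares near those of the neighbours. AW112010, which lies between Ms4a18 and Ms4a8a, rose from 83.6 ± 11.1 to 1176 ± 498 CPM (SD, n = 3; log2 3.81 ± 0.30 SE, edgeR, adjusted p = 4.4e-08). Vps37c, a subunit of a membrane sorting complex, rose by 1.34 ± 0.10 (edgeR, adjusted p = 7e-10), and Ddb1, a DNA damage-binding protein, fell by 0.86 (SE 0.10, edgeR, adjusted p = 2.7e-07). With the cytokines 5 neighbours rose and 6 fell, beside 18.3% and 16.9% of all genes, and Cd6, a scavenger receptor family protein of lymphocytes, fell by 5.17 (SE 0.43, edgeR, adjusted p = 2.1e-08).

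Tetraspanins are a separate family of membrane proteins with a like topology. Of 16 tested, 5 rose and 6 fell with LPS in WT cells, near the shares of all genes, and 8 rose and 1 fell with the cytokines. Cd9 rose from 879 ± 16.2 to 1881 ± 54.4 CPM (SD, n = 3; log2 1.10 ± 0.09 SE, edgeR, adjusted p = 5.4e-09) and Cd63, a lysosomal tetraspanin, by 0.64 ± 0.12 (edgeR, adjusted p = 0.00021). Among 20 monocyte and macrophage genes, 9 rose and 4 fell when the cytokines accompanied LPS, the setting in which Ms4a7 was highest, although their summed level was lower there (13830 to 15465 TPM against 20006 to 23130). The 3 with the smallest p all rose. Apoe, a lipoprotein of macrophages, rose from 8.8 ± 3.46 to 427 ± 122 CPM (log2 5.60 ± 0.36 SE, edgeR, adjusted p = 3e-08), C1qa, a complement subunit, by 2.61 ± 0.24 (edgeR, adjusted p = 6.9e-08), and Csf1r, the receptor for the macrophage growth factor, by 1.41 ± 0.10 (edgeR, adjusted p = 5.6e-10).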
